A study of Rattus norvegicus with 6 samples.

Results

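Nuclear receptors and their cofactors were followed in the lateral ventricular choroid plexus of the rat, the tissue that secretes cerebrospinal fluid and separates it from the blood. The genes described were the 36 of the nuclear receptor, coregulator and Mediator families that carry a name in the authors' list of 10653 genes differing between the embryo and the adult, out of 29479 gene identifiers counted. They were thus selected on the authors' adjusted p for the same contrast in the same pools. All differences between the ages, and the calls made on them, are therefore a description of selected genes and not a test. Related genes that the authors did not call carry no name in the sources used here, and of 93 genes on a list of these families 51 were not analysed here, among them *Thra*, *Thrb*, *Rarb*, *Rarg*, *Rxrb*, *Vdr*, *Ppard*, *Nr1d2* and *Ncor1*.

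Untreated Sprague-Dawley rats were used at embryonic day 15 (E15) and as adults of 6 weeks, and both lateral ventricular plexuses of 10 animals made up each RNA pool. There were 3 pools, and so 3 libraries, at each age. The plexus was dissected whole, with its vessels and stroma, so a pool mixes epithelium with other cells, and fewer cells of a type cannot be told apart from less RNA per cell. Library totals were 17875089, 18901272 and 18524987 counts for E15 replicates 1, 2 and 3, and 18511712, 19204440 and 18421472 counts for adult replicates 1, 2 and 3.

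Nuclear receptors are transcription factors, many of which are switched by a small lipophilic ligand such as a steroid, retinoic acid, thyroid hormone or a fatty acid, while orphan receptors have no settled ligand. Bound to DNA, often as dimers with a retinoid X receptor, they recruit coactivators or corepressors, and the Mediator complex links them to RNA polymerase II. In the choroid plexus, hormones such as thyroid hormone, retinoids and corticosteroids reach these receptors from the blood through the epithelium.

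Counts were scaled with TMM factors, which bring the bulk of the genes of each library to a common level, and are given as normalized counts for a library of 19265016 counts. Fold changes are fitted values from edgeR, with log2 values positive where a gene was higher at E15 and given ± their standard error (3 pools per age). Over the 16643 genes tested the median log2 fold change was 0.14, and it became 0.95 when libraries were scaled to their total counts only. Under that scaling 5 of the 36 genes changed direction, namely *Ncoa1*, *Ncoa3*, *Nr4a1*, *Med19* and *Med31*. No member tested changed direction under the other scalings, filters and tests, with a replicate block or with any single library left out, where filterByExpr left 34 members (without *Nr0b2* and *Nr5a1*) and the omission of E15 replicate 2 left 35 (without *Nr0b2*).

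E15 replicate 1 stood apart from the other E15 pools. Its Spearman's rho over the genes tested was 0.979 with E15 replicate 2 and 0.983 with E15 replicate 3, compared with 0.996 between those pools and 0.986 to 0.988 between adult pools. Fold changes without this pool are given below for some of the members. Differences between replicates within each age exceeded counting noise (chi-square per degree of freedom 5.40 to 56.4), and each was kept as a sample of its own.

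The labelled tissue was checked on markers of choroid plexus epithelium, of which 8 of 10 could be analysed. Every one was present in all 6 libraries, and transthyretin (*Ttr*) was the most abundant. Their summed normalized counts were 445488, 532985 and 548199 in E15 replicates 1, 2 and 3, and 5945947, 5064442 and 5021726 in the adult replicates. None of the epithelial markers was at 0 at either age, and all 8 were enriched in the adult, with a median log2 fold change of -3.34. Markers of this and the other cell types could be analysed only where the authors' list names them. All markers analysed had thus been selected on this contrast, and counts of them in a direction are a description and not a test. Of all genes tested, 34.7% were called higher at E15 and 29.3% in the adult. The part of the epithelium in the values of the receptors and cofactors higher in the adult was not tested.

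Of the 36 members, 19 were enriched at E15, and 14 were so in the adult, at an adjusted p under 0.05 in edgeR's quasi-likelihood test, compared with 34.7% and 29.3% of all genes tested (64.0% with both directions counted). The counts of the pools did not overlap between the ages for 20 members higher at E15 and 15 higher in the adult, where 38.0% and 32.1% of all genes tested did so. Since the members had been selected on this contrast, nothing is read from these shares. Scaled to total counts only, enrichment at E15 was called for 20 members and in the adult for 9, beside 58.9% and 13.8% of all genes. *Esr1*, *Pparg* and *Nr5a1* were not called, whereas the exact test of edgeR, run with 1 dispersion for all genes, called all 36 members, 20 higher at E15 and 16 in the adult. The authors' list came from the same kind of test on the same counts. The call of all 36 members therefore repeats their selection, and nothing is read from it. The median log2 fold change of the 36 genes was 0.61. It could not move when genes with 3 counts or fewer at an age were set to their bounds or ratios, since each kept its side of the median.

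**Figure D1:**
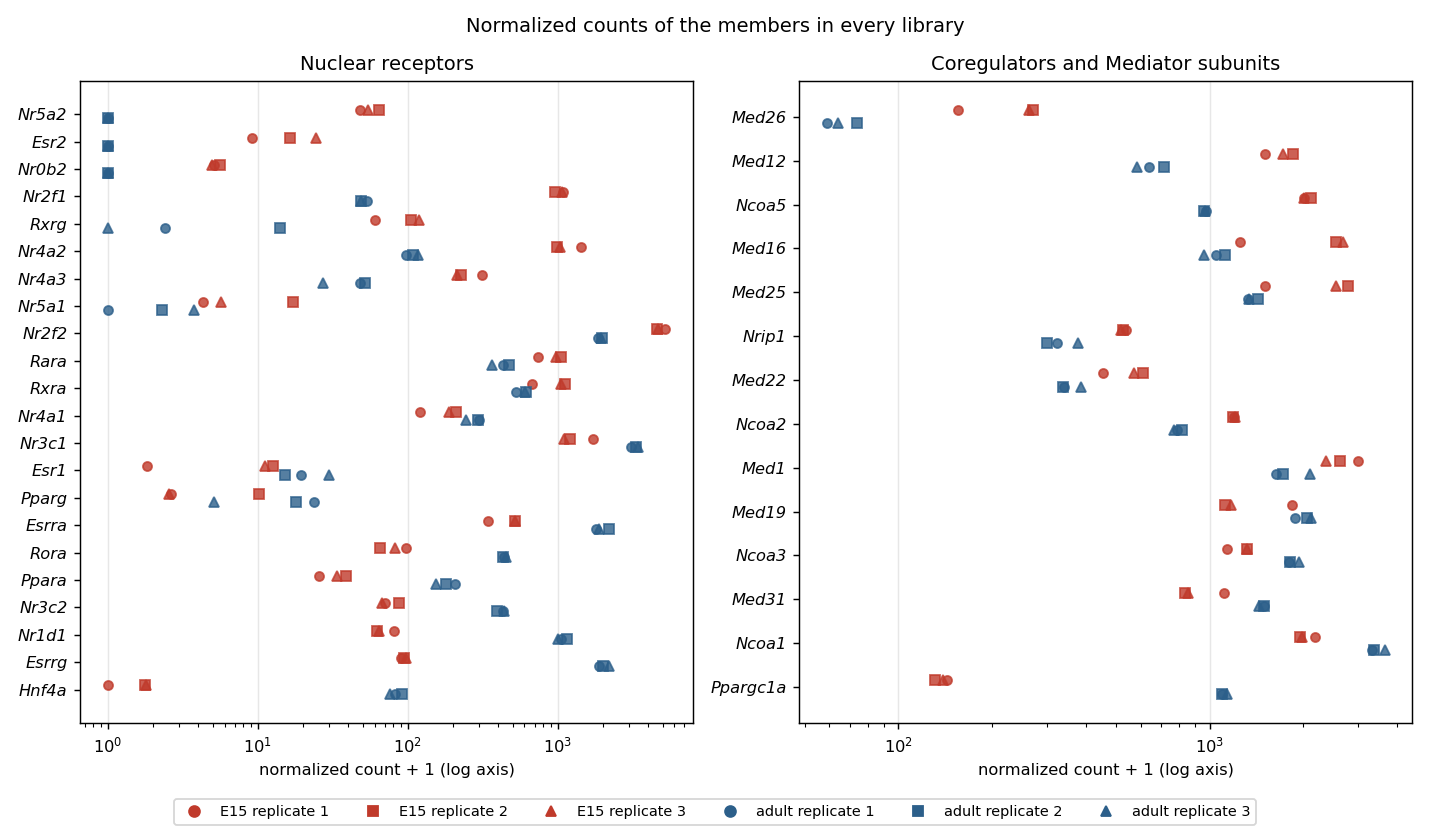
Normalized count plus 1 of each member in every library on a log axis, with receptors on the left, coregulators and Mediator subunits on the right, E15 pools in red and adult pools in blue. Members are ordered by fitted change, from *Hnf4a*, *Esrrg* and *Ppargc1a* with the adult pools to the right, to *Nr5a2* and *Med26* with the E15 pools to the right, and *Pparg* is the member whose ages overlap.

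The estrogen-related receptors *Esrra* and *Esrrg* and their partner coactivator *Ppargc1a* were higher in the adult. *Esrrg* (ENSRNOG00000002593) encodes an orphan receptor that drives genes of mitochondrial oxidative metabolism, and had 89.2, 93.9 and 96.5 normalized counts in the E15 pools compared with 1885, 2011 and 2207 in the adult pools. Pools of an age lay close together and the ages were far apart. The difference amounted to 21.8-fold (log2 -4.45 ± 0.13), and 12.5-fold when scaled to total counts only.

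Start-site regions were searched in windows of 300 bases of the RefSeq assembly GRCr8, from 250 before to 50 after a start site, and 30 of the 36 members had at least 1, with 37 windows in all. AGGTCA, the half-site of many nuclear receptors, was planned as a motif and occurred on either strand in 2 of the 37 windows, those of *Esrrg* and *Nr5a2*, and in 16.2% of all 33469 windows. A match describes letters only, and binding was not measured. In 1 of the 4 windows of *Esrrg* it reads on the opposite strand, 135 bases before the start site, and is in capitals in the plus-strand stretch chr13:101755595-101755660.
Esrrg: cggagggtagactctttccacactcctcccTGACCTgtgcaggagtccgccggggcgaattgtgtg

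*Esrra*, the related receptor with similar target genes, had 342, 521 and 519.9 normalized counts at E15, with adult values of 1798, 2192 and 1875. It was lowest in E15 replicate 1 at no overlap of the ages, and was enriched 4.24-fold in the adult (log2 -2.08 ± 0.18), or by a log2 fold change of -1.91 without that pool. *Ppargc1a* encodes the coactivator PGC-1 alpha, which docks on these receptors and promotes the formation of mitochondria. It had 142, 130.1 and 138 normalized counts at E15, beside 1096, 1096 and 1134 for adults, an even set within each age and an enrichment of 8.10-fold in the adult (log2 -3.02 ± 0.12). TGACGTCA, the cAMP response element, was chosen as a motif after the data had been seen, and occurred in the windows of *Ppargc1a* and *Med31* and in 1.83% of all windows. For *Ppargc1a* it begins 181 bases before the start site and is in capitals in the plus-strand stretch chr14:63634097-63634164.
Ppargc1a: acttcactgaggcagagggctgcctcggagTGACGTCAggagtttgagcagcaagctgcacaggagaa

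Both members of the Rev-erb and ROR group, which bind the same DNA elements with opposite effect in the circadian clock, were higher in the adult. *Nr1d1* (Rev-erb alpha), the repressor of the pair, had 79.4, 61.6 and 63.5 normalized counts at E15, set against adult values of 1055, 1145 and 1007. No pool of an age came near the other age, and the enrichment was 15.7-fold (log2 -3.97 ± 0.15). The time of day of collection is not given in the sources used here, so age and clock phase cannot be told apart for this gene and for *Rora*. *Nr1d1* overlaps *Thra* in the reference annotation, and since use of strand in counting is not stated, reads of the overlap cannot be assigned to either gene. CACGTG, an E-box of the kind bound by clock proteins, was also chosen after the data had been seen, and occurred in 5 of the 37 windows (*Nr1d1*, *Esr2*, *Med16*, *Nr0b2* and *Nr5a1*) and in 6.42% of all windows. In 1 of the 2 windows of *Nr1d1* it begins 191 bases before the start site, in capitals in the minus-strand stretch chr10:84229610-84229675.
Nr1d1: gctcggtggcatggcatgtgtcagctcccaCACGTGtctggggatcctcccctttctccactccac

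For *Rora*, the activator, 96.6, 64.7 and 80.8 normalized counts at E15 stood against 439, 431 and 452 in the adult. It was enriched 5.46-fold (log2 -2.45 ± 0.19), with adult pools within a narrow range.

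Among lipid-sensing receptors the largest difference was that of *Hnf4a* (ENSRNOG00000008895), a regulator of epithelial differentiation in liver, gut and kidney. It had 0, 1 and 1 raw counts in E15 pools, against 57, 70 and 55 in those of adults, so that it was close to undetected at E15. The ratio of normalized counts was 157 in favour of the adult, with an exact 95% interval of 42.8 to 1304, and with a single pool left out it lay between 106 and 208. Both E15 counts came from replicates 2 and 3.

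*Ppara*, the receptor that turns on fatty acid oxidation, had 24.6, 37.7 and 32.9 normalized counts at E15, against 204, 179 and 152 in adult pools. The ages did not overlap and the enrichment in the adult was 5.60-fold (log2 -2.48 ± 0.27). *Pparg*, the adipogenic receptor, was scarce, with 2, 12 and 2 raw counts at E15, with adult values of 16, 13 and 3. Its normalized counts overlapped, since adult replicate 3 (4.12) lay below E15 replicate 2 (9.24), and its log2 fold change of -1.77 ± 0.87 was not called. It was called when either of those pools was left out, with a log2 fold change of -3.08 without E15 replicate 2 and -2.24 without adult replicate 3. Of the adipocyte markers only *Adipoq* could be analysed (1 of 5), with 0, 9.24 and 5.49 normalized counts at E15, beside 4719, 4094 and 4492 for adults, and its part in the values of *Pparg* was not tested.

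The corticosteroid receptors were higher in the adult. *Nr3c1*, the glucocorticoid receptor, had 1723, 1214 and 1105 normalized counts at E15, set against adult values of 3092, 3322 and 3413, with E15 replicate 1 the highest of its age and still well below every adult pool. Its enrichment was 2.43-fold (log2 -1.28 ± 0.16), with a log2 fold change of -1.50 without that pool and -0.48 when scaled to total counts only. *Nr3c2*, the mineralocorticoid receptor, had 69.6, 86.2 and 66.7 normalized counts at E15, against 432, 392 and 435 in adult pools. That was an enrichment of 5.65-fold (log2 -2.50 ± 0.18) without overlap.

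The estrogen receptors were both of low abundance and differed in their pattern over the pools. *Esr2* had 10, 20 and 30 raw counts at E15 and 0 in each adult pool, at least 11.6-fold higher at E15 against a floor of 3 counts over the adult pools. With any 1 pool left out this bound lay between 7.56 (without adult replicate 2) and 14.3 (without E15 replicate 1), since the floor stands for fewer libraries where an adult pool is left out. *Esr1* had 1, 15 and 13 raw counts at E15, with adult values of 13, 11 and 21, and its log2 fold change of -1.42 ± 0.73 was not called. E15 replicate 1 alone held almost none of its counts, and without that pool the log2 fold change was -0.91.

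All 3 retinoid receptors that could be analysed were enriched at E15. They carry a name through the authors' calls, and 34.7% of all genes tested were called higher at E15. *Rarb*, *Rarg* and *Rxrb* were not analysed here, so the retinoid receptors as a family are not described. *Rara* had 739.9, 1051 and 976 normalized counts at E15, beside 432, 469 and 363 for adults, an enrichment of 2.19-fold (log2 1.13 ± 0.17). *Rxra*, the common dimer partner, had 674, 1114 and 1043 normalized counts at E15, set against adult values of 525, 615 and 602. E15 replicate 1 lay only just above the adult pools for *Rxra*, and the log2 fold change of 0.70 ± 0.19 was 0.89 without it. *Rxrg*, the retinoid X receptor of restricted expression, had 73, 136 and 150 raw counts at E15, against 1, 10 and 0 in adult pools, and was enriched 18.6-fold (log2 4.22 ± 0.74). Almost all of its adult counts came from replicate 2, and without that pool the ratio was 136, with an exact 95% interval of 24.2 to 5373. Without adult replicate 3, which had none, the log2 fold change was 3.62, and it was 4.45 without E15 replicate 1.

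Adult replicate 2 was also the adult pool with the highest sum for markers of developing neurons, of which 10 of 11 could be analysed and all 10 were enriched at E15. These genes, like all markers analysed, carry a name through the authors' calls. Their summed normalized counts were 5313, 1759 and 3938 at E15, with adult values of 142, 483 and 139, *Tubb3* was the most abundant, *Neurod1* had adult counts in replicate 1 only and *Neurog2* in replicate 3 only, and *Neurod6* and *Nhlh1* were at 0 in every adult pool. The ages overlapped for *Stmn2*, with 170 normalized counts in adult replicate 2 and 127 in E15 replicate 2. The sums for endothelium and mesenchyme, given with the COUP-TF receptors, were highest in the same adult pool. The part of these cells in the counts of *Rxrg* was not tested.

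The COUP-TF receptors, orphan receptors that pattern the embryonic forebrain and, in the case of *Nr2f2*, specify venous endothelium, were higher at E15. *Nr2f1* had 1090.3, 956 and 1068 normalized counts at E15, beside 52.4, 48.0 and 48.1 for adults, an enrichment of 20.9-fold (log2 4.39 ± 0.15). Its pools agreed closely within each age. *Nr2f2* remained abundant in the adult, with 5213, 4617 and 4640.2 normalized counts at E15, set against adult values of 1862, 1979 and 1931, and was enriched 2.51-fold at E15 (log2 1.33 ± 0.10). Endothelial markers were analysed for 7 of 8 genes, all enriched at E15 and none at 0 in an age, with *Cdh5* the most abundant at E15 and *Tek* in the adult. They too carry a name through the authors' calls. They summed to 7618, 10263 and 8483 normalized counts at E15, against 753, 1199.8 and 913 in adult pools. For mesenchyme 7 of 7 markers were analysed, of which *Dcn* and *Pdgfra* were enriched in the adult and the other 5 at E15, where *Col3a1* was the most abundant (*Pdgfra* in the adult). They summed to 42049, 55811 and 48143 normalized counts at E15, with adult values of 15930.2, 16544 and 16039, and none was at 0. Neither list's part in the counts of *Nr2f1* and *Nr2f2* was tested.

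The NR4A receptors, immediate-early genes whose proteins act without a known ligand, did not move together. *Nr4a2* (Nurr1), known for its role in dopamine neurons, had 1423, 991 and 1036 normalized counts at E15, beside 96.3, 106 and 115 for adults. That was an enrichment of 10.8-fold at E15 (log2 3.44 ± 0.18), and the log2 fold change was 3.25 without E15 replicate 1, the highest pool. *Nr4a3* had 313, 224 and 213 normalized counts at E15, set against adult values of 46.7, 50.6 and 26.1, 6.05-fold in favour of E15 (log2 2.60 ± 0.30). *Nr4a1* (ENSRNOG00000007607), which the list gives under the name of a rat allele, had 119.5, 207 and 188 normalized counts at E15, against 297, 292 and 243 in adult pools. It was thus higher in the adult by 1.62-fold (log2 -0.69 ± 0.23), but at 0.11 in the opposite direction when scaled to total counts only. Its call was lost without adult replicate 1 (-0.67) or adult replicate 2 (-0.69), with upper quartile factors (-0.57) and with totals without the 10 highest genes (-0.23), and its log2 fold change was -0.49 without E15 replicate 1, its lowest pool.

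The members with no counts in the adult pools included further orphan receptors. *Nr5a2* (LRH-1), a regulator of pluripotency, bile acid and steroid genes, had 57, 82 and 68 raw counts at E15 and 0 in each adult pool. It was at least 40.1-fold higher at E15, a bound that fell to 26.1 without adult replicate 2 and reached 42.8 without E15 replicate 1. The AGGTCA of its window begins 134 bases before the start site, in capitals in the minus-strand stretch chr13:50985037-50985102.
Nr5a2: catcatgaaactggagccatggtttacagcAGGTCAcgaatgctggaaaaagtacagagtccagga

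*Nr0b2* (SHP), a receptor without a DNA-binding domain that represses others, had 5, 6 and 5 raw counts at E15 and 0 in the adult. Against the floor of 3 counts it was at least 3.10-fold higher at E15, a bound that leaves out counting error at E15. That bound was 2.02 without adult replicate 2 and 3.21 without E15 replicate 3. So few counts carry little precision, and *Nr0b2* was not called by DESeq2 nor with the replicate number as a block. *Nr5a1*, an orphan receptor with a few adult counts, was chosen for mention after its values were seen. It had 4, 21 and 6 raw counts at E15, with adult values of 0, 1 and 2, a ratio of 6.00 (exact 95% interval 1.87 to 30.7) that was not called. Most of its counts were in E15 replicate 2, and the ratio was 2.94 without that pool, 12.1 without adult replicate 3 and 7.71, now called, without E15 replicate 1. It was also called with total counts, with or without the 10 highest genes (log2 fold changes 3.22 and 2.91).

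**Figure D2:**
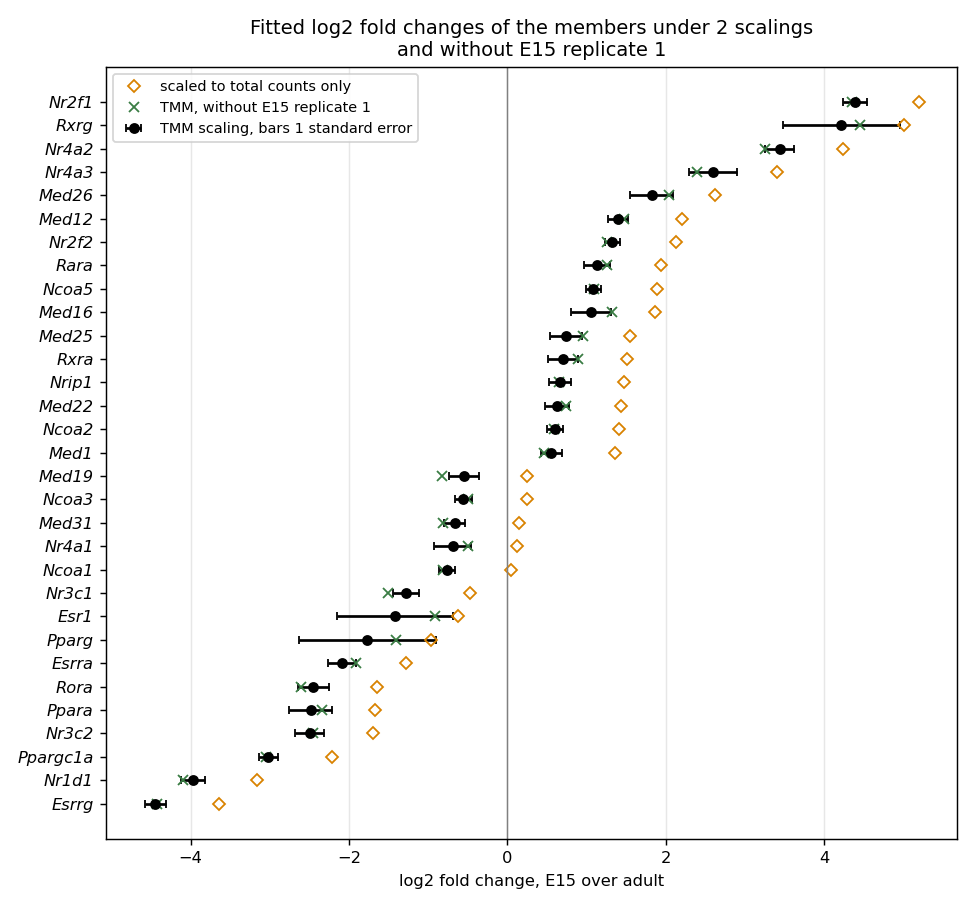
Fitted log2 fold change of E15 over adult for the 31 members with more than 3 counts at each age, with TMM scaling (circles, bars 1 standard error), scaling to total counts only (diamonds) and without E15 replicate 1 (crosses). Total counts shift all members towards E15, and 5 of them from *Ncoa1* to *Med19* cross 0.

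The coactivators of the p160 family, which bring histone acetyltransferases to receptors, fell on both sides. *Ncoa1* (SRC-1) had 2185, 1955 and 1983 normalized counts at E15, beside 3325, 3385 and 3652 for adults, higher in the adult by 1.69-fold (log2 -0.76 ± 0.10) but level at 0.05 when scaled to total counts only. *Ncoa3* (SRC-3) had 1139, 1316 and 1316 normalized counts at E15, set against adult values of 1805, 1810.1 and 1931, with a log2 fold change of -0.56 ± 0.11 that turned to 0.25 with total counts and was no longer called, at -0.09, with totals without the 10 highest genes. *Ncoa2* (SRC-2) was the p160 gene higher at E15, with 1196, 1185 and 1204 normalized counts compared with 786, 814 and 768 in the adult (log2 0.60 ± 0.10). Of the remaining coregulators, *Ncoa5*, which works without the enzymatic domains of its relatives, had 2013, 2115 and 2013 normalized counts at E15, against 969.9, 958 and 968 in adult pools. This 2.12-fold enrichment at E15 (log2 1.08 ± 0.10) came with close values within each age. *Nrip1* (RIP140), a corepressor of metabolic genes, had 539, 525 and 519.9 normalized counts at E15, with adult values of 323, 299 and 376, 1.59-fold in favour of E15 (log2 0.67 ± 0.14).

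Of the 8 Mediator subunits among the members, 6 were higher at E15 and 2 in the adult, and the direction of those 2, *Med19* and *Med31*, turned when libraries were scaled to total counts only. *Med21*, a further subunit that the list gives under a protein name and that is therefore no member, was also higher in the adult (log2 fold change -0.55), and turned to 0.26 with total counts. Outside the members, *Cdk19* was higher at E15 and *Ccnc* in the adult, as given below. All these subunits carry a name through the authors' calls, so nothing is read from the tally. Of all genes tested, 34.7% were called higher at E15 and 29.3% in the adult. *Med12*, which activates the kinase module, had 1505, 1857 and 1717 normalized counts at E15, beside 636, 712 and 582 for adults, a 2.63-fold enrichment at E15 (log2 1.40 ± 0.13). *Med1*, the subunit that binds ligand-bound receptors directly, had 3002, 2625 and 2371 normalized counts at E15, set against adult values of 1635, 1718 and 2097. The ages came close for *Med1* without overlapping, and its log2 fold change of 0.55 ± 0.13 was the smallest in size at E15. *Med31*, of the middle module, had 1112, 831 and 855 normalized counts at E15, against 1491, 1496 and 1443 in adult pools, with a log2 fold change of -0.66 ± 0.13 that became 0.14 with total counts and was no longer called, at -0.20, with totals without the 10 highest genes. The head subunits *Med19* and *Med22* had log2 fold changes of -0.55 and 0.62, the first turning to 0.25 with total counts.

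In several Mediator and receptor genes the spread between E15 pools was set by replicate 1. *Med16*, of the tail module, had 1252, 2557 and 2681 normalized counts at E15, with adult values of 1051, 1117 and 960.0. *Med25*, which contacts retinoid receptors, had 1509, 2783 and 2542 normalized counts at E15, beside 1329.5, 1432 and 1334 for adults. *Med26*, which takes part in recruiting elongation factors, had 154, 270.3 and 263 normalized counts at E15, set against adult values of 58.1, 72.7 and 63.2. In all 3 genes E15 replicate 1 lay nearer to the adult pools than the other E15 pools did, without reaching them. Log2 fold changes were 1.05, 0.74 and 1.82 in that order (standard errors 0.25, 0.20 and 0.27), and 1.32, 0.96 and 2.04 without the pool.

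Of the 23 members with a mean above 100 normalized counts at E15, 6 were lower in E15 replicate 1 by more than 1.5-fold than in both other E15 pools, namely *Med16*, *Med25*, *Med26*, *Rxra*, *Esrra* and *Nr4a1*. *Med19* was higher by more than that, with 1846 normalized counts compared with 1117 and 1170.1. Among all 10984 genes of such abundance, 8.96% were lower and 6.64% higher in that pool by the same measure. The call of *Med19* was lost without E15 replicate 2, E15 replicate 3, adult replicate 2 or adult replicate 3 (log2 fold changes -0.42, -0.45, -0.57 and -0.54), with upper quartile factors (-0.43) and with totals without the 10 highest genes (-0.09), and the log2 fold change stood at -0.82 without E15 replicate 1. The sum of the proliferation markers, analysed for 5 of 6 genes and led by *Top2a*, was also highest in E15 replicate 1, although *Ccnb1* was highest in E15 replicate 3, with sums of 18682, 13072 and 14590.4 normalized counts at E15, against 351, 401 and 453 in adult pools, and none at 0. The same held for the sum of neural progenitor markers (6 of 8, led by *Sox2*, none at 0), although *Hes5* was highest in E15 replicate 3, with 6767, 3814 and 4425 normalized counts at E15, with adult values of 2050.2, 1923 and 1949. The sum for developing neurons was highest in E15 replicate 1 as well, with 5313 normalized counts compared with 1759 and 3938, although *Tubb3* and *Neurog2* were highest in replicate 3. The sums for epithelium, endothelium and mesenchyme were lowest of the E15 pools in replicate 1. Their members were divided, since *Kcnj13*, *Enpp2*, *Cldn2*, *Pecam1*, *Pdgfra*, *Lum* and *Dcn* were highest in that pool, and *Tek* and *Emcn* lay between the other E15 pools. The part of any of these cells in the values of the Mediator and receptor genes was not tested.

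**Figure D3:**
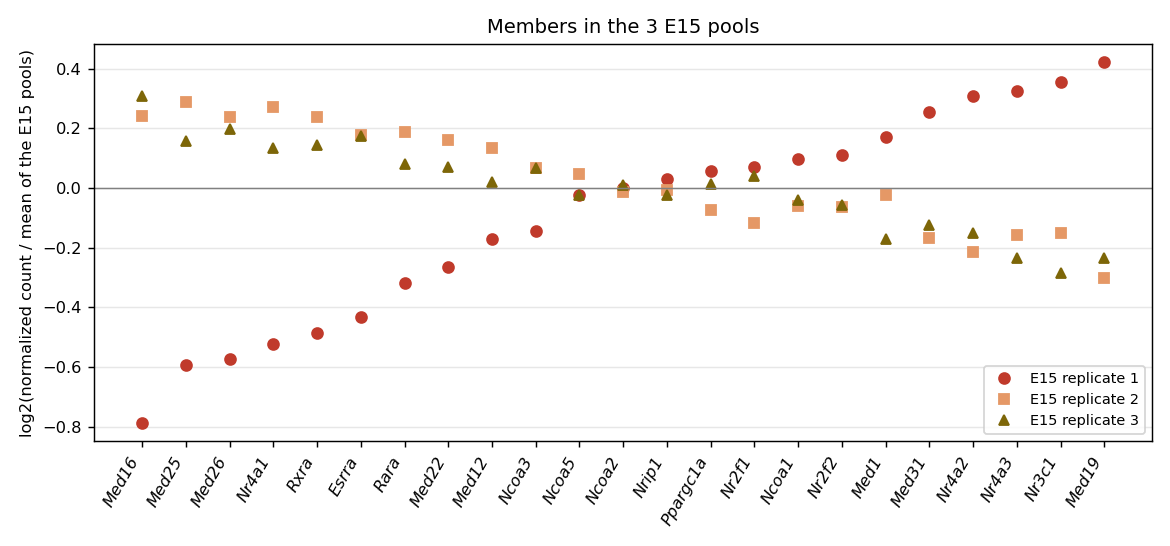
Log2 ratio of each E15 pool to the mean of the E15 pools for the 23 members with a mean above 100 normalized counts at E15. Replicate 1 (circles) runs from lowest in *Med16* to highest in *Med19*, while replicates 2 and 3 lie close together.

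Genes of the same families that carry a name but fall outside the family names used to choose the members were given beside them. *Nr1i2* (PXR), the receptor that induces genes of drug metabolism and efflux, had 11.5, 10.0 and 7.06 normalized counts at E15, beside 231, 148 and 253 for adults, 21.9-fold in favour of the adult (log2 -4.45 ± 0.34). *Nr1h3* (LXR alpha), a sensor of oxysterols, had 68.8, 86.2 and 102 normalized counts at E15, set against adult values of 280.3, 205 and 196 (log2 -1.41 ± 0.24). For *Nr1h4* (FXR), the bile acid receptor, 39.3, 16.9 and 24.3 normalized counts at E15 overlapped the 8.50, 5.19 and 17.9 of the adult, and it was not called. Of the Mediator kinase module, *Cdk19* was higher at E15 (log2 fold change 0.67), and *Ccnc* was higher in the adult (log2 fold change -0.82, or -0.02 with total counts).

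Genes that make, carry or respond to the ligands came from lists of which again only genes called by the authors carry names. In retinoic acid metabolism 7 of 8 genes could be analysed, of which 6 were enriched at E15 and *Dhrs3* in the adult, with a median log2 fold change of 2.53. The synthetic enzyme *Aldh1a2* had 331, 393 and 341 normalized counts at E15, against 14.2, 136 and 31.6 in adult pools, most of the latter in adult replicate 2. *Cyp26c1*, which degrades retinoic acid, had 9.82, 42.4 and 58.8 normalized counts at E15 and none in adult pools. *Dhrs3*, which returns retinal to retinol, had 1187, 1105 and 1074 normalized counts at E15, with adult values of 6219, 5938 and 5631 (log2 -2.40 ± 0.10). Within retinoid binding and uptake (4 of 6, median 0.67) *Crabp1* and *Crabp2* were enriched at E15 and *Rbp2* and *Stra6* in the adult. *Crabp2*, which delivers retinoic acid to its receptor, had 11434, 9948 and 10624 normalized counts at E15, beside 1371, 1488 and 1188 for adults. The retinoid receptors analysed here and 6 of the 7 metabolic genes were on the same side of the contrast, and the carriers on both. These 6 include genes of synthesis, such as *Aldh1a2*, and of breakdown, such as *Cyp26c1*. Their shared side therefore gives no direction for retinoic acid, which was not measured. Of all genes tested, 34.7% were called higher at E15 and 29.3% in the adult. Genes of the lists carry a name through the authors' calls, so counts within a list are a description and not a test.

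For thyroid hormone, whose receptors were not analysed here, 2 of 3 genes with a name were enriched in the adult (of 5 listed, median -4.19). *Slco1c1*, a thyroxine transporter, had 1475, 1358 and 1149 normalized counts at E15, set against adult values of 25832, 22204 and 24669 (log2 -4.19 ± 0.13). *Dio1* was also enriched in the adult (log2 fold change -5.69), while *Dio2* had 2, 17 and 10 raw counts at E15 and 0 in each adult pool. The enzymes of steroid and vitamin D metabolism (4 of 7, median -0.86) were divided. *Hsd11b2*, which inactivates glucocorticoids, had 374, 518 and 471 normalized counts at E15, against 38.2, 72.7 and 64.6 in adult pools (log2 2.95 ± 0.25). *Hsd11b1*, which regenerates them, had 7.37, 6.16 and 2.35 normalized counts at E15, with adult values of 62.3, 68.8 and 59.1 (log2 -3.56 ± 0.45). The enzymes of glucocorticoid inactivation and regeneration thus lay on opposite sides. *Srd5a1* was enriched at E15 and *Cyp27a1* in the adult.

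Known targets of the glucocorticoid receptor did not share the direction of *Nr3c1* as a group. Of 6 genes analysed (of 7, median 1.61), *Sgk1* and *Klf9* were enriched in the adult and *Fkbp5*, *Per1*, *Zbtb16* and *Dusp1* at E15. *Sgk1*, a kinase that raises sodium transport, had 944, 618 and 681 normalized counts at E15, beside 7369.7, 8848 and 9985 for adults (log2 -3.55 ± 0.19). *Fkbp5*, a chaperone that restrains the receptor, had 1684, 1243 and 1241 normalized counts at E15, set against adult values of 357, 338 and 375 (log2 1.96 ± 0.15). In both genes the ages were well apart. Of the 6 PPAR targets listed and analysed (median -1.01), *Pdk4*, *Ehhadh*, *Acadm* and *Cpt1a* were enriched in the adult, the last turning to 0.18 with total counts, and *Angptl4* and *Plin2* at E15. *Pdk4*, a kinase that spares glucose when fatty acids are burned, had 34.4, 44.7 and 45.5 normalized counts at E15, against 256, 223 and 247 in adult pools (log2 -2.54 ± 0.22). Among LXR targets (3 of 6, median -1.14), *Srebf1* and *Mylip* were enriched in the adult and *Apoe* at E15, with overlapping pools for *Apoe*.

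**Figure D4:**
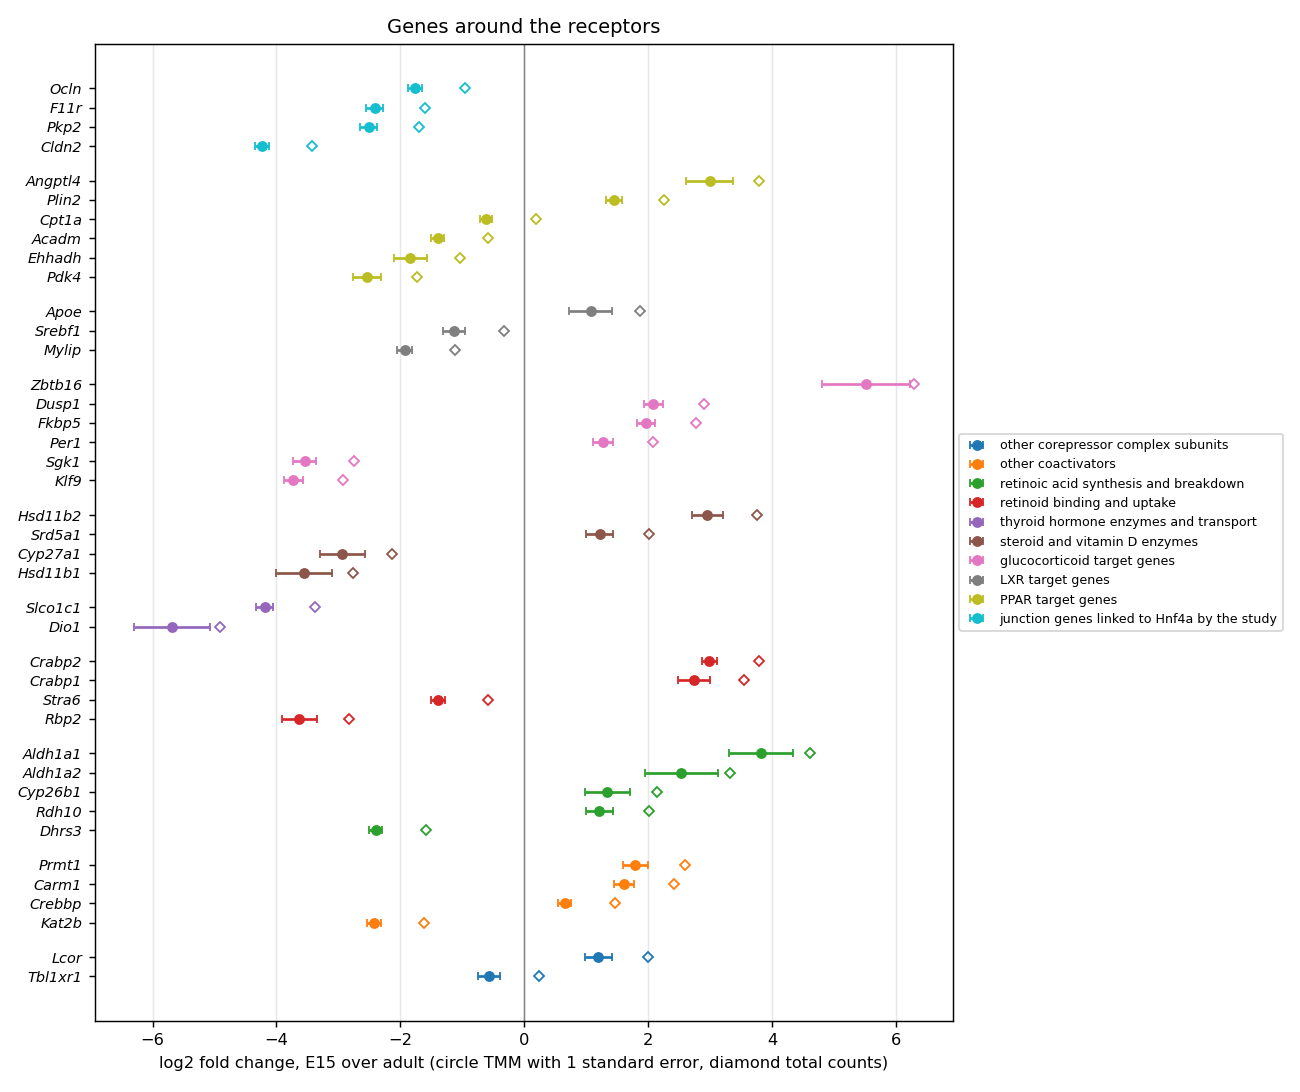
Fitted log2 fold change of E15 over adult for genes of ligand metabolism, coregulators and receptor targets with more than 3 counts at each age, by list, with TMM scaling (circles, bars 1 standard error) and scaling to total counts only (diamonds). *Fkbp5*, *Per1*, *Dusp1* and *Zbtb16* lie to the right of 0 and *Sgk1* and *Klf9* to the left, and *Tbl1xr1* and *Cpt1a* cross 0 between the scalings.

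The 4 analysed genes of intercellular junctions that the study links to *Hnf4a* (of 5, chosen by the study on these samples and therefore no independent evidence) were enriched in the adult, with a median log2 fold change of -2.46. The gene left out is also given by the study as higher in the adult, and was not analysed here. *Cldn2*, a pore-forming claudin, had 5162, 4746 and 4348 normalized counts at E15, with adult values of 88728, 86391 and 92589. *Ocln*, *F11r* and *Pkp2* had log2 fold changes of -1.76, -2.42 and -2.51. Other coactivators (4 of 5, median 1.13) comprised *Crebbp*, *Carm1* and *Prmt1*, enriched at E15, and *Kat2b*, enriched in the adult. *Kat2b*, the acetyltransferase PCAF, had 193, 190.2 and 179 normalized counts at E15, beside 1002, 995 and 1026 for adults (log2 -2.43 ± 0.12). Of the corepressor complexes (2 of 5, median 0.31), *Lcor* was enriched at E15, and *Tbl1xr1* in the adult with a turn to 0.23 under total counts.

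Oligodendrocyte markers (5 of 5, led by *Mog* at E15 and *Mbp* in the adult) summed to 497, 342 and 650.1 normalized counts at E15, set against adult values of 13083, 4793 and 2244, so that adult replicate 1 held the most, and none was at 0 at an age. Of these 5, *Mog* was enriched at E15 and the others in the adult. Macrophage markers (3 of 6, led by *Csf1r* at E15 and *Lyz2* in the adult, none at 0) summed to 1693, 1937 and 1658 normalized counts at E15, against 1644, 2049 and 2397 in adult pools, with *Csf1r* and *Mrc1* enriched at E15 and *Lyz2* in the adult. Their part in the values of the receptors was not tested.

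**Figure D5:**
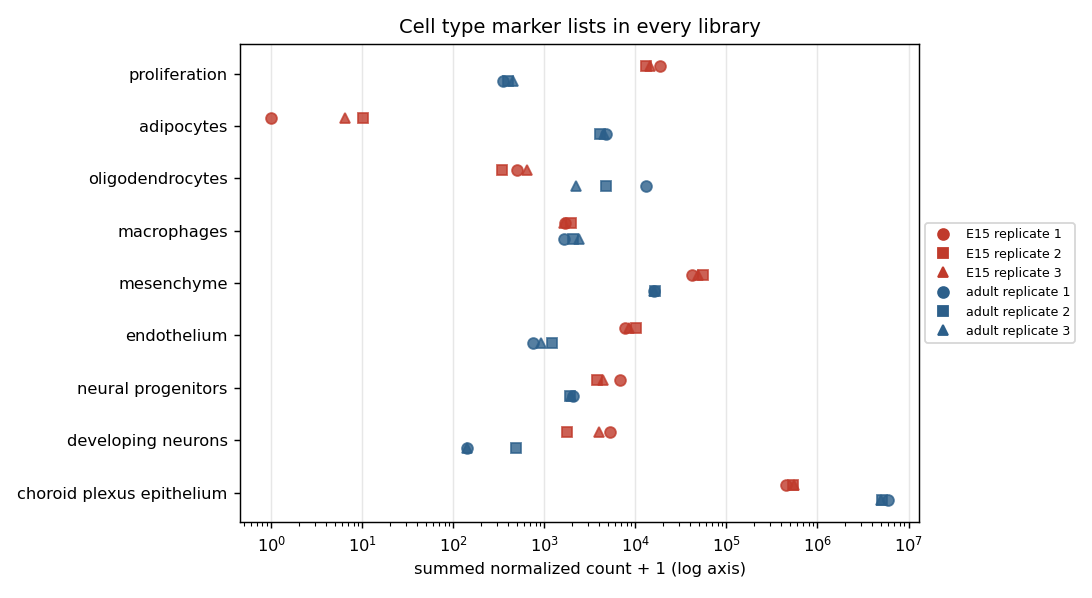
Summed normalized count plus 1 of the marker genes of each cell type in every library on a log axis, E15 pools in red and adult pools in blue. Adult replicate 2 holds 483 normalized counts of neuronal markers compared with 142 and 139 in the other adult pools, and adult replicate 1 the most oligodendrocyte markers.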

How the data were processed

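RNA of 3 pools per age was sequenced. The authors trimmed the reads, placed them on Ensembl's rat genome using Bowtie 0.12.7, kept unique matches and counted them on genes with HTSeq 0.4.7p4 in union mode, and deposited raw counts without normalization. Strand use in counting is not stated. A second table deposited by the authors holds log2 fold changes, log2 abundances, p-values and adjusted p-values from edgeR 2.4.0, of which only identifiers, names and descriptions were used here. Of the members, 5 overlap another protein-coding gene in RefSeq (*Nr1d1*, *Esrra*, *Med19*, *Ncoa5* and *Ppara*), and their counts are uncertain to that extent.

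Ages were compared with edgeR 4.0.16 in R 4.3.3 (estimateDisp, glmQLFit, glmQLFTest, TMM, more than 10 counts over the 6 libraries, age as the only term, Benjamini-Hochberg over 16643 genes, threshold 0.05). The common dispersion was 0.0332. Standard errors are the log2 fold change divided by the square root of F. The script was tested on simulated data. Totals of 17875089 to 19204440 counts set the depth. An age with 0 counts was held to a floor of 3 counts over its pools, and the resulting bounds leave out the counting error of the other age. Ratios with 1 to 3 counts were given with exact 95% binomial intervals, which cover counting error only. Alternatives were 4 scalings, no filter or filterByExpr, DESeq2 1.42.0, limma-voom (limma 3.58.1), edgeR's exact test, a replicate block, a fold above 2 and the omission of each library. Lists and figures used Python 3.11.15, pandas 2.3.3, scipy 1.17.1 and matplotlib 3.10.9.

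Members and lists were chosen with earlier results of these data known. Genes named were the 12 largest changes in each direction above 100 normalized counts without overlap, preset receptors and coregulators, members with 0 counts at an age, and the list genes. A further part, members nearest the authors' threshold by their adjusted p, was dropped because those values are not used here. Protein motifs and family genes without a name were not analysed here. A few genes of the lists are not reported here, and their lists were counted without them.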

Additional observations from a re-analysis of the deposited data

How the results depend on the processing

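Scaling to total counts only turned the log2 fold changes of *Ncoa1* (0.046), *Nr4a1* (0.11), *Med31* (0.14), *Ncoa3* (0.25) and *Med19* (0.25) towards E15, left 9 members called higher in the adult in place of 14, and moved the median log2 fold change of the members from 0.61 to 1.42. Without the 10 genes of highest mean count in the totals, that median was 1.08. The all-gene median moved with it, from 0.14 to 0.95 and 0.60. Asking for a fitted fold change above 2 left 13 members higher at E15 and 9 in the adult. With the other scalings, filters and tests 18 to 20 members were called higher at E15 and 10 to 16 in the adult. The 16 came from edgeR's exact test with 1 dispersion, the kind of test by which the authors had formed their list.

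With the replicate number as a block, 18 and 14 members were called and the median was 0.61. Numbers did not pair the pools: the correlation across genes of same-numbered pools lay between -0.06 and -0.01, and genes are not independent replicates.

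With each library left out in turn, 9336 to 11667 genes differed between the ages, 18 to 20 members were called higher at E15 and 12 to 14 in the adult, and the median lay between 0.56 and 0.65. The cause of these changes was not tested. At this depth *Nr0b2*, *Esr1*, *Pparg* and *Nr5a1* had few counts, and their calls differed between settings. The number of family list genes called could not be formed under any setting, since genes the authors did not call carry no name here.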
